A study of Rattus norvegicus with 3 samples.

Results

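The 7 genes described here encode the enzymes of the hexosamine pathway and of O-GlcNAc cycling: Gfpt1, Gfpt2, Gnpnat1, Pgm3, Uap1, Ogt and the O-GlcNAcase gene, which the table lists under its older symbol Mgea5. They were chosen by name, and all 7 were found among the 18425 genes of the table. RNA was sequenced from retinas of wild type Sprague Dawley rats that received 1 µl into the vitreous at P1 and were collected at P4. One library came from eyes given citrate buffer of pH 4.5, one from eyes given saline and one from eyes given 10 µg of streptozotocin (STZ), which had been dissolved in citrate buffer. There was 1 library per group, and the number of retinas behind a library is not given in the sources used here. No difference below therefore has a replicate check and no p-value was computed. The libraries held 21992702 reads in buffer, 21977843 in saline and 22031249 in the STZ library.

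The hexosamine pathway turns a branch of glycolysis into UDP-GlcNAc, the sugar donor for N-glycans, hyaluronan and O-GlcNAc. GFAT, encoded by Gfpt1 or Gfpt2, transfers an amino group from glutamine to fructose 6-phosphate and sets the pace of the pathway. The products of Gnpnat1, Pgm3 and Uap1 then acetylate the sugar phosphate, move its phosphate and join it to UTP. OGT attaches a single GlcNAc to serines and threonines of nuclear and cytosolic proteins, and O-GlcNAcase removes it. STZ is a glucosamine linked to a methylnitrosourea group that alkylates DNA, and because it resembles GlcNAc it has been used as an inhibitor of O-GlcNAcase.

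The labelled tissue was checked against marker genes. Retinal progenitor and photoreceptor markers were present in each library, with the photoreceptor gene Crx at 384, 349 and 409 FPKM for buffer, saline and STZ in turn. FPKM is the number of fragments scaled to transcript length and library size. Marker levels differed between the libraries. All 8 retinal progenitor markers had a lower read share in STZ than in either control, with summed levels of 753.7, 792 and 535.4 FPKM and none at 0. All 9 microglia markers had a higher one, with sums of 52.9, 64.8 and 158.6 FPKM. The 9 pigment and ciliary epithelium markers summed to 104, 255 and 102 FPKM, and their retinal pigment epithelium gene Rpe65 had 0, 2 and 2 reads. Lens markers summed to 13.3, 37.3 and 244 FPKM. In RNA from whole retina, fewer cells of a type and less RNA per cell cannot be told apart.

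The start regions of the pair that cycles O-GlcNAc and of Gfpt1 are shown because Ogt and Mgea5 lay on the same side of both controls in STZ and Gfpt1 on the other. The sequences are the 250 bases before the annotated start, from RefSeq on the build GRCr8, which matched 5 of the 7 genes. They run 5′ to 3′, and capitals mark the GC box GGGCGG or its reverse complement CCGCCC. The reads were mapped to rn6, so these positions belong to GRCr8 only. The start used for Mgea5 lies inside the annotated gene, since longer transcripts begin upstream.
Ogt, chrX:70811085-70811334, plus strand: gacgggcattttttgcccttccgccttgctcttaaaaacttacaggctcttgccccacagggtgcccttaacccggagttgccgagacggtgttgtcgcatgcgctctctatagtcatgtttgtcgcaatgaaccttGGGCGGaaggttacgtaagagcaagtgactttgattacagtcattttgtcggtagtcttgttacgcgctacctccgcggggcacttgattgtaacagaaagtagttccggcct
Mgea5, chr1:254582270-254582519, minus strand: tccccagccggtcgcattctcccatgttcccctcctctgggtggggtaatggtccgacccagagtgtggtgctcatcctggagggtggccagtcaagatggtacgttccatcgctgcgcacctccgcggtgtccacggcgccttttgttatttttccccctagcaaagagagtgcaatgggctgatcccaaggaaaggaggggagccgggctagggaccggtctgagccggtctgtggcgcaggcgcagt
Gfpt1, chr4:121053839-121054088, plus strand: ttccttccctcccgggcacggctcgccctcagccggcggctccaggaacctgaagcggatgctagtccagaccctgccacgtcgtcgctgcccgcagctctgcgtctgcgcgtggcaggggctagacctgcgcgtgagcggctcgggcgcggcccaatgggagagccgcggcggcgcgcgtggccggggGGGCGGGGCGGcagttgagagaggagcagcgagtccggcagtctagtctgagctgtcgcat
The Ogt window holds 1 GC box, the Mgea5 window 0, and the Gfpt1 window 2 that overlap by 1 base. A GC box is present in 30.5% of the 33469 windows of this length in the table. The windows of Ogt, Mgea5 and Gfpt1 hold 16, 15 and 31 CpG dinucleotides, where the median window holds 5. These matches are a description of the letters and were not related to the expression values.

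Per length, the pair of O-GlcNAc enzymes was expressed above the enzymes of the hexosamine pathway. Ogt was at 120.4 FPKM in buffer, 123 in saline and 114 in STZ, above 96.4%, 96.5% and 96.0% of all genes in the table. Mgea5 was at 88.2, 90.6 and 83.4 FPKM. Gfpt1 followed at 37.1, 34.9 and 38.6 FPKM, then Gnpnat1 at 16.5, 16.0 and 16.7 FPKM. Pgm3 was at 11.5, 12.3 and 12.3 FPKM, and Uap1 at 10.6, 10.3 and 12.2 FPKM. Gfpt2 was far below the others, at 0.58, 1.22 and 0.82 FPKM. The order was the same in the 3 libraries. Of the 6 neighbouring pairs in this order, 5 had 95% counting intervals that did not overlap, in each library. Pgm3 and Uap1 were the exception, with intervals of 10.4 to 12.5 and 9.63 to 11.6 FPKM in buffer. These intervals cover counting error only.

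**Figure D1:**
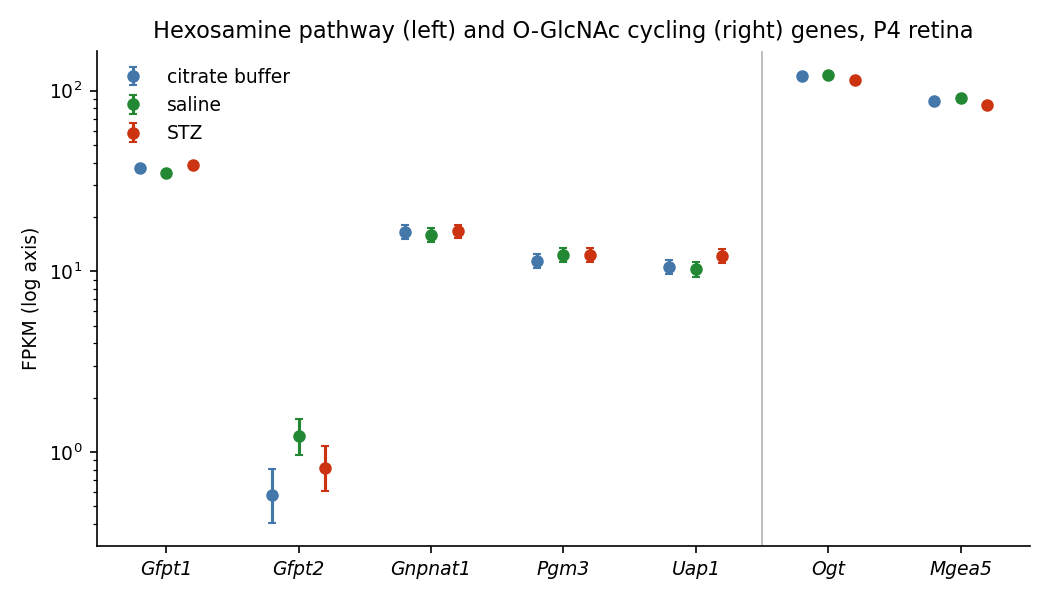
FPKM of the 7 genes on a log axis in the citrate buffer, saline and STZ libraries, with 95% counting intervals as bars where they are wider than the point. The 3 libraries lie close together for each gene except Gfpt2, which was at 0.58 FPKM in buffer and 1.22 in saline.

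The change of a gene was expressed in 2 ways. The fold change was (FPKM + 1)/(FPKM + 1), with thresholds at 0.65 and close to its inverse. The count ratio divided the share of a library's reads that a gene took by its share in the other library, with an exact 95% interval for counting error. By the fold change, 0 of the 7 genes passed when STZ was set against buffer, 0 when it was set against saline, and 0 between the controls. Of all genes in the table, 3.29%, 3.78% and 1.43% passed in these comparisons, so fewer than 1 of any 7 genes would pass at the background share. By the counting interval, 4 of the 7 excluded 1 for STZ and buffer, 5 for STZ and saline and 2 for the controls, where 38%, 42.2% and 23.6% of all genes with reads did so. Deeply sequenced genes pass this rule at small differences. Of genes whose mean was 1000 reads or more, 59.8%, 67.1% and 39.9% excluded 1. The 2 comparisons with STZ share the STZ library.

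Ogt and Mgea5, the writer and the eraser of O-GlcNAc, were slightly lower in the STZ library than in both controls. Ogt had 12857 reads in buffer, 13068 in saline and 12484 in STZ, so that STZ was lowest and saline highest. The count ratio of Ogt was 0.969 in STZ against buffer (counting interval 0.946 to 0.994) and 0.953 against saline (0.930 to 0.977). Between the controls the ratio was 1.02, and its interval of 0.993 to 1.04 included 1.

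Mgea5 had 9263 reads in buffer, 9425 in saline and 8894 in STZ, in the same order as Ogt. Its count ratio was 0.958 in STZ against buffer (0.931 to 0.987) and 0.941 against saline (0.914 to 0.969), and 1.02 in saline against buffer (0.989 to 1.05). The reads of Mgea5 were partly estimated, since its deposited values are fractional. With the TMM factors of edgeR the ratios against buffer became 0.942 for Ogt and 0.932 for Mgea5, and both intervals stayed below 1 against either control. The ratios of both genes lay between 0.8 and its inverse, bounds that 16.1% of the genes averaging 100 reads or more passed for STZ and buffer, and 5.91% for the controls.

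The balance of the pair hardly moved. Ogt had 1.39 reads for each read of Mgea5 in buffer (1.35 to 1.43), 1.39 in saline (1.35 to 1.42) and 1.40 in STZ (1.37 to 1.44). The intervals overlap. Per length, the ratio of the FPKM of Ogt to that of Mgea5 was 1.37, 1.36 and 1.37.

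Many genes shared the pattern of either enzyme over the 3 libraries. Likeness was measured as the distance between the log2 count ratios of saline and of STZ against buffer, among the other genes with whole counts and a mean of at least 500 reads, which were 7172 for Ogt and 7173 for Mgea5. The genes nearest to Ogt were Ccdc137, Zcchc2 and Cnpy3, at distances of 0.0019, 0.0044 and 0.0056 log2 units. Those nearest to Mgea5 were Leo1, Oxct1 and Etv3, at 0.0014, 0.0020 and 0.0023. Ogt and Mgea5 were 0.016 apart, and 78 of the 7172 genes lay within 0.02 of Ogt. With 3 libraries such likeness has little weight.

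Ogt lies on the X chromosome, and the libraries differed in Y-linked RNA. Eif2s3y had 500 reads in buffer, 1927 in saline and 1529 in STZ. Kdm5d had 444, 2006 and 1377 reads in the same order. The part of the sex of the pups in the level of Ogt, or of any other gene described here, was not tested.

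The entry step showed the opposite side. Gfpt1, the GFAT gene that supplied nearly all GFAT reads, had 3791 reads in buffer, 3597 in saline and 4036 in STZ, so that STZ was highest and saline lowest. Its count ratio was 1.06 in STZ against buffer (1.02 to 1.11) and 1.12 against saline (1.07 to 1.17). The controls differed by a similar amount, with a ratio of 0.949 in saline against buffer (0.907 to 0.994). With TMM factors the ratio against buffer was 1.03, and its interval of 0.988 to 1.08 included 1.

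Gfpt2, the second GFAT gene, was hardly expressed, with 35 reads in buffer, 74 in saline and 50 in STZ. Saline was the highest. The count ratio was 2.12 in saline against buffer (1.40 to 3.26), 0.674 in STZ against saline (0.461 to 0.978) and 1.43 in STZ against buffer (0.908 to 2.26). Its fold change of 1.41 in saline against buffer did not pass, and the added 1 FPKM is above its level in buffer. With a pseudocount of 0.1 it was 1.94 and passed, and it also passed with the deposited TPM at 1.59. The pigment and ciliary epithelium markers were high in the same library, where 8 of 9 had a higher read share than in buffer and 7 passed the upper fold threshold. Aldh1a1, the one with the most reads, which the dorsal retina also expresses, had 1904 reads in buffer, 6838 in saline and 1904 in STZ. What part these cells had in the level of Gfpt2 was not tested. Gfpt1 had 108.3 reads for each read of Gfpt2 in buffer (77.7 to 156), 48.6 in saline (38.6 to 62.0) and 80.7 in STZ (61.1 to 109).

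Of the 3 enzymes that follow GFAT, only Uap1 had an interval that excluded 1 against a control. Uap1, which makes UDP-GlcNAc in the last step, had 456 reads in buffer, 443 in saline and 525 in STZ. Its count ratio was 1.15 against buffer (1.01 to 1.31) and 1.18 against saline (1.04 to 1.34), and 0.972 between the controls (0.851 to 1.11). With TMM factors the ratio against buffer was 1.12, with an interval of 0.984 to 1.27. Among genes with a mean of 100 to 1000 reads, 41.2% excluded 1 for STZ and buffer, 46.0% for STZ and saline and 23.4% for the controls.

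Gnpnat1, the acetyltransferase, had 519 reads in buffer, 498 in saline and 527 in STZ. Its count ratio against buffer was 1.01 (0.896 to 1.15), and it fell below 1, to 0.985, with TMM factors, so it has no stable direction. Pgm3, the phosphate mutase, had 466, 500 and 501 reads, a ratio of 1.07 against buffer (0.944 to 1.22) and of 1.00 against saline (0.881 to 1.13). For both genes a change within these bounds was not detectable at this depth.

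**Figure D2:**
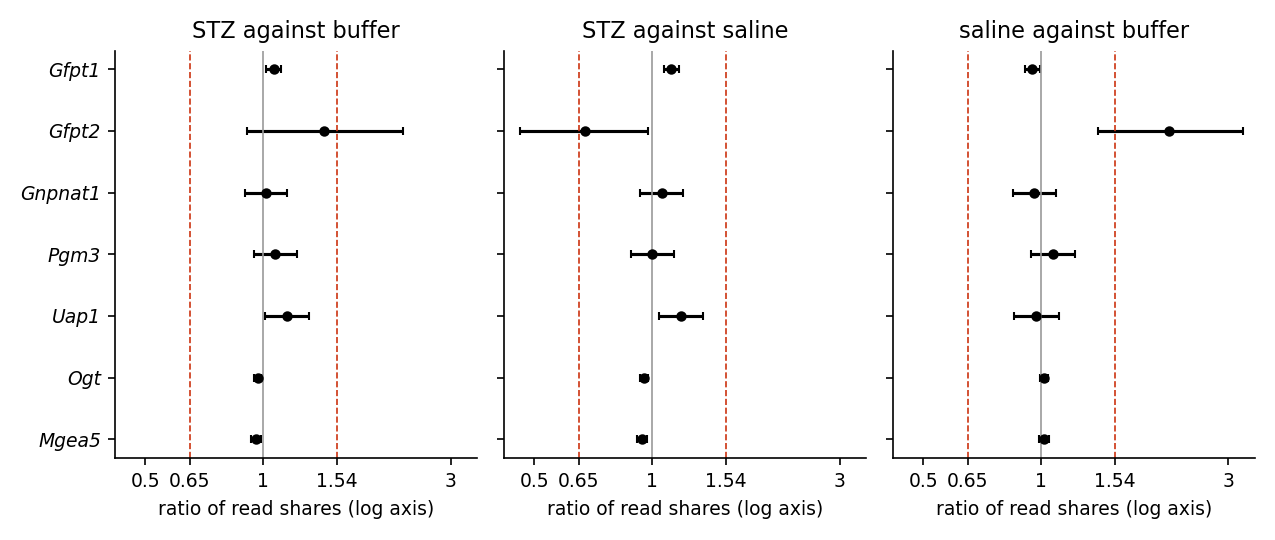
Ratio of read shares between libraries for the 7 genes, on a log axis, with exact 95% counting intervals as bars. Dashed lines stand at the thresholds of the FPKM fold change, for scale only, and Gfpt2 in saline against buffer, at 2.12, is the only point beyond them.

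The median count ratio of the 7 genes was 1.06 in STZ against buffer, 1.00 against saline and 1.02 in saline against buffer. Over all genes averaging 10 reads or more it was 1.03, 1.01 and 1.01. Against both controls, 3 of the 7 had ratios above 1 (Gfpt1, Gnpnat1 and Uap1) and 2 had ratios below 1 (Ogt and Mgea5). Of these, Gnpnat1 fell below 1 against buffer under TMM or DESeq2 factors. Among the 11802 genes averaging 100 reads or more, 45% were above 1 against both controls and 36.5% below.

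Genes around the pathway were described by 6 lists that hold 69 genes, of which 68 were in the table. By the fold change 1 of the 68 was higher and 0 lower in STZ against buffer, 3 were higher and 0 lower in STZ against saline, and 0 were higher and 1 lower between the controls. Over all genes in the table, 2.25% were higher and 1.04% lower against buffer, 2.04% and 1.75% against saline, and 1.0% and 0.429% between the controls. The first list holds 12 enzymes of side reactions and salvage, which return hexosamine phosphates to glycolysis, recover GlcNAc or lead on to sialic acid. None of its genes passed the fold thresholds against either control. Yet 11 of the 12 had count ratios above 1 against both controls, where 45% of the 11802 genes averaging 100 reads or more did so. Against single libraries, 55.7% of those genes had a ratio above 1 for STZ and buffer, 52.8% for STZ and saline and 53.6% for the controls. The median count ratio was 1.28 against buffer and 1.20 against saline, and 1.07 between the controls. A ratio above the inverse of 0.8 was seen in 7 of the 12 against buffer, where 16.1% of genes passed either bound, and in 3 against saline, where 20.5% did.

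Among these, Amdhd2, which encodes a deacetylase of GlcNAc 6-phosphate, had 153 reads in buffer, 181 in saline and 213 in STZ, and the highest ratio of the list against buffer, at 1.39 (1.12 to 1.72). Against saline its ratio was 1.17, with an interval of 0.958 to 1.44 that included 1. Uap1l1, the paralog of Uap1, had 193, 206 and 268 reads and a ratio of 1.39 (1.15 to 1.68) against buffer and 1.30 (1.08 to 1.56) against saline. Nans, which encodes sialic acid synthase, had 816, 877 and 1097 reads and a ratio of 1.34 (1.22 to 1.47). Uap1l1 and Nans were named after their values were seen. The exception was Gnpda2, one of a pair of glucosamine 6-phosphate deaminases, with a ratio of 0.892 against buffer (0.776 to 1.02) and 0.827 against saline (0.722 to 0.947). With TMM factors 10 of the 12 were above 1 against buffer. Microglia markers were higher in the same library, and their part in this list was not tested.

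UDP-GlcNAc transporters and the enzymes that use the sugar moved both ways. Of 19 genes, 0 passed the fold thresholds against buffer or saline, where 3.29% and 3.78% of all genes did. Against buffer 14 had count ratios above 1 and 5 below, and the median was 1.08. Against saline 12 were above 1 and 7 below, and the median was 1.09. Among genes averaging 100 reads or more, 55.7% and 52.8% had ratios above 1 in these comparisons. Against both controls 12 of the 19 were above 1, beside 45% of those genes. Mgat4a, which adds a branch to N-glycans, had the highest ratio, with 697, 784 and 1117 reads and 1.60 against buffer (1.45 to 1.76). Lfng, which extends O-fucose on Notch with GlcNAc, had the lowest of those averaging 50 reads or more, with 1793, 1816 and 1286 reads and 0.716 (0.666 to 0.770). Its ratio against saline was 0.706 (0.657 to 0.759). The retinal progenitor markers were lower in the same library, and their part was not tested.

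Substrate supply was described by 14 genes of glucose and glutamine uptake, entry into glycolysis, acetyl-CoA and UTP. Against buffer 11 had count ratios above 1 and 3 below, and the median was 1.09. Against saline 9 were above 1 and 5 below, and the median was 1.11. Among genes averaging 100 reads or more, 55.7% and 52.8% had ratios above 1 in these comparisons. Against both controls 9 of the 14 were above 1 and 3 below, beside 45% and 36.5% of those genes. Slc2a1, the main glucose transporter of the retina, had 10438 reads in buffer, 9378 in saline and 7196 in STZ and the lowest ratio of the list, 0.688 against buffer (0.668 to 0.709). Its fold change of 0.690 did not pass 0.65. Slc2a1 is also expressed by endothelial cells, whose 6 markers summed to 119, 129 and 83.4 FPKM and had 0 members higher in STZ than in either control. Kdr made up most of each sum, at 106, 117 and 80.2 FPKM. The other markers fell further in STZ, with Cdh5 at 119, 114 and 28 reads and Cldn5 at 188, 154 and 37 reads. The part of endothelial cells in the level of Slc2a1 was not tested. Slc2a3, a neuronal glucose transporter, had 31, 60 and 92 reads and the highest ratio, 2.96 (1.95 to 4.61), with a fold change of 1.53, just short of the upper threshold. Against saline the ratio of Slc2a3 was 1.53 (1.09 to 2.15) and the fold 1.22, and the controls themselves differed by a ratio of 1.94 (1.24 to 3.09). Hk2, a hexokinase, had 1736, 1071 and 1928 reads. It passed the thresholds through the saline library, with folds of 1.73 for STZ against saline and 0.626 between the controls, while STZ against buffer was 1.08.

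The 10 genes for proteins that bind or guide OGT and O-GlcNAcase leaned to the side of the pair. In 9 of the 10 the count ratio was below 1 against both controls, where 36.5% of genes averaging 100 reads or more had such ratios. The median was 0.930 against buffer and 0.903 against saline, and 0.989 between the controls. Counting intervals included 1 for Trak1 (0.929 to 1.04) and Bap1 (0.939 to 1.01) against buffer and for Trak2 (0.969 to 1.02) against saline. The retinal progenitor markers were lower and the microglia markers higher in the STZ library, and their part in this list was not tested. Tet1, a DNA demethylase of a family that binds OGT, had 364, 313 and 228 reads and the lowest ratio, 0.625 against buffer (0.528 to 0.740). The exception was Ppargc1a, the coactivator PGC-1α, with 301, 176 and 461 reads and ratios of 1.53 against buffer (1.32 to 1.77) and 2.61 against saline (2.19 to 3.13). Its fold change passed against saline only, at 1.86, and it was 1.37 against buffer.

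Other enzymes that cleave hexosamines from glycans were in a list of 7 genes with their activator, of which 6 were in the table. Against buffer all 6 had count ratios above 1, with a median of 1.09, and 4 of the 6 did with TMM factors, where 55.7% of genes averaging 100 reads or more did so before scaling. Against saline 5 of the 6 were above 1, beside 52.8% of those genes, and Gm2a, the activator, was at 0.895 (0.821 to 0.977). Hexa and Gm2a were named after their values were seen. Hexa, a lysosomal hexosaminidase gene, had 687, 701 and 772 reads and a ratio of 1.12 (1.011 to 1.245) against buffer. Its interval included 1 with TMM factors (0.983 to 1.21) and against saline (0.991 to 1.22). Hexdc, a hexosaminidase outside the lysosome, had 851, 828 and 856 reads and the lowest ratio, 1.00 (0.912 to 1.11), which turned below 1 under TMM factors. The microglia marker Aif1 had 86, 95 and 273 reads, and the part of microglia in this list was not tested.

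The last list holds 7 regulators of stress responses that have been linked to the hexosamine pathway. None passed the fold thresholds, and 5 had counting intervals above 1 against both controls, where 21.7% of genes averaging 100 reads or more did so. The microglia and lens markers were higher and the progenitor markers lower in the same library, and their part in this list was not tested. Nr4a1, an immediate early nuclear receptor, had 109, 107 and 178 reads and the highest ratio, 1.63 against buffer (1.28 to 2.09). Ern1, the endoplasmic reticulum stress sensor, had 947, 1001 and 933 reads and the lowest, 0.983 (0.898 to 1.08). Xbp1, the transcription factor that Ern1 activates by splicing, had 1359, 1274 and 1758 reads and a ratio of 1.29 (1.20 to 1.39). Hspa5, the chaperone BiP, had 7750, 7386 and 10260 reads and 1.32 (1.28 to 1.36). Atf4, another transcription factor of the list, had 7390, 7576 and 7484 reads and a ratio of 1.01 (0.979 to 1.04), which was 0.983 with TMM factors. Against saline the ratio of Atf4 was 0.985 (0.954 to 1.02). Xbp1, Hspa5 and Atf4 were named after their values were seen.

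**Figure D3:**
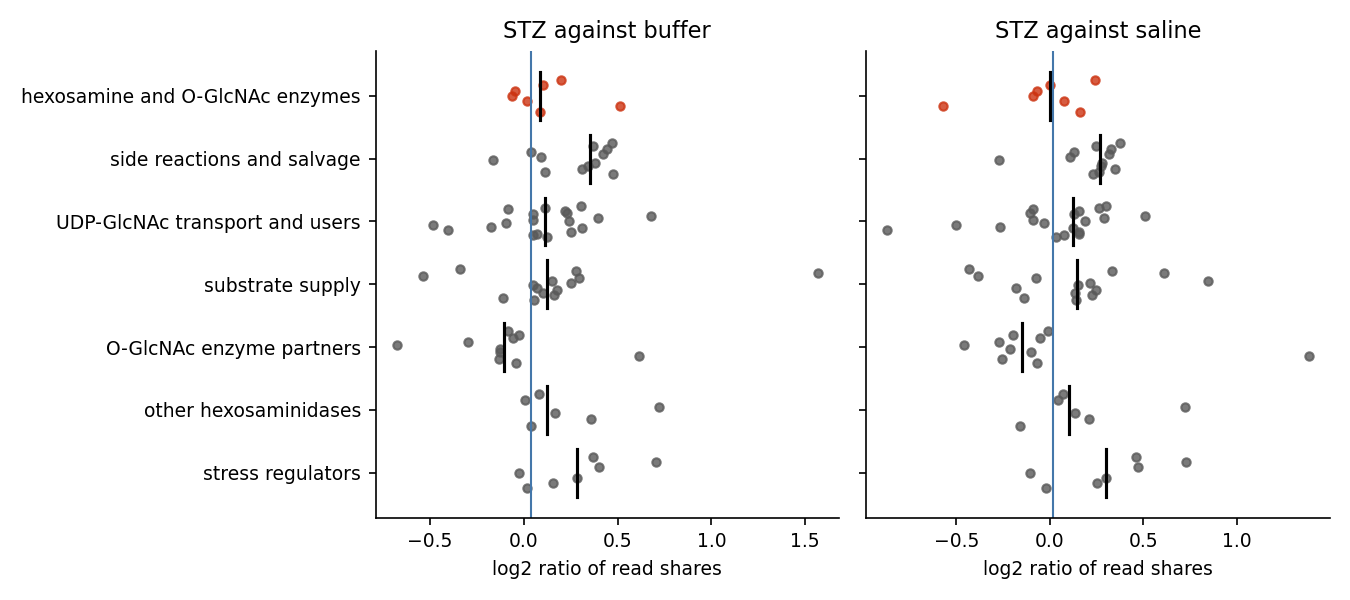
Log2 ratio of read shares in STZ against buffer and against saline, with 1 point per gene, for the 7 genes (top row) and the 6 lists around the pathway. Black bars are medians, and the blue line is the median of all genes averaging 10 reads or more, at 0.038 against buffer and 0.019 against saline. Most points of the side reaction and salvage list lie right of it and most partners of the O-GlcNAc enzymes lie left of it.

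**Figure D4:**
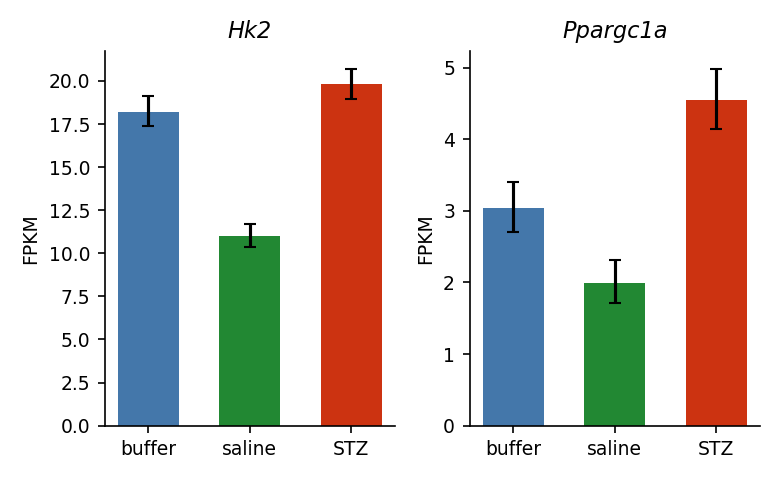
FPKM of Hk2 and Ppargc1a by library, with 95% counting intervals as error bars and axes from 0. Both are lowest in saline, at 11.03 and 1.99 FPKM.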

How the data were processed

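RNA of 3 rat retina libraries, 1 each for citrate buffer, saline and STZ, was sequenced. The authors trimmed poor-quality 5′ ends, mapped reads with TopHat2 allowing up to 2 mismatches, dropped reads with more than 1 genomic location, and calculated FPKM with an R script. Per the labels the build was rn6, and FastQC was used. Annotation and strand setting are not given in the sources used here. The authors deposited FPKM, TPM and estimated counts per gene. Of the estimated counts, 12.9% to 13.2% per library were fractional, and they were rounded before intervals were computed. Library totals of 21977843 to 22031249 reads set the counting error given beside each value. The tables per library held the same values as the joint table, with a largest difference of 0.

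Fold changes followed the study's formula. Count ratios had exact Clopper-Pearson intervals at the 95% level. Without molecular identifiers a read is not a separate molecule, and the intervals hold no other error. The calculations were tested on simulated data. Named genes were the 7 enzymes, list genes with a mean of at least 10 reads past a threshold, the highest and lowest count ratio of each list in STZ against buffer with a mean of at least 50 reads, and the 3 nearest patterns of Ogt and of Mgea5. The enzymes, lists and tests were chosen with earlier results of these data known. The alternatives tried were thresholds of 2 and 0.5, a pseudocount of 0.1, CPM from counts, deposited TPM, scaling by edgeR 4.0.16 TMM or DESeq2 1.42.0 size factors in R 4.3.3, the mean of both controls and minimum counts. Background shares by depth class and counts against both controls were added after seeing the data. No count model was fitted. RefSeq genes on GRCr8 gave names and overlaps. Python 3.11.15, scipy 1.17.1 and matplotlib 3.10.9 were used. Reads of Ogt, Gfpt2, Gnpnat1 and Uap1 could include those of 1 overlapping RefSeq gene each, none of which is in the table. One list gene past a threshold is not reported here by name, and it is counted in the totals of its list.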

Additional observations from a re-analysis of the deposited data

How the results depend on the processing

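No paired analysis was possible because each group has 1 library, and leaving out a replicate was not possible. The paper describes STZ in the right eye and buffer in the left eye of the same animals. It does not state whether the sequenced retinas were paired in this way. The number of the 7 genes past the thresholds stayed at 0 in STZ against both controls under each alternative except the counting interval, which called 4 against buffer and 5 against saline. In saline against buffer it was 1 (Gfpt2) with the pseudocount of 0.1, with CPM and with TPM, and 2 by the counting interval. Among the 68 list genes, the number in STZ against buffer went from 1 to 4 with the pseudocount of 0.1 and with CPM and to 2 with TPM. In saline against buffer it went from 1 to 2 and to 3 with the first pair of these. With thresholds of 2 and 0.5 it was 0 in each comparison. The last of these is a stricter threshold, and the cause of the other shifts was not tested.

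TMM and DESeq2 factors shifted all log2 ratios in STZ against buffer by -0.041 and -0.038. Under either, Gfpt1 and Uap1 had intervals that included 1 against buffer, and Gnpnat1 turned to the other side of 1. Of 126 folds of single genes, 123 moved by less than their counting interval, and the other 3 were those of Ogt in STZ against buffer under the scaling factors, at 0.922 to 0.924.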

Other observations

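The deposited FPKM and read counts gave slightly different sizes for the same genes. FPKM per read, set relative to the median of the 5384 genes with at least 1000 reads in each library, was 2.2% lower in STZ than in buffer for Ogt. The same quantity was 2.2% lower for Gfpt1 and 1.28% lower for Mgea5. Shifts at least this large were seen in 9.08%, 9.06% and 15.6% of these genes. In saline against buffer the shift of Ogt was 0.226%. For Ogt the FPKM fold of 0.948 in STZ against buffer is therefore lower than the count ratio of 0.969, and for Gfpt1 the fold of 1.04 is lower than the count ratio of 1.06. The gene lengths behind the FPKM were not analysed here.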
